A study of Homo sapiens with 4 samples.

Results

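Nascent RNA was measured over 10 genes of the NF-κB pathway, 4 subunit genes (*RELA*, *RELB*, *NFKB1* and *NFKB2*) and 6 genes that the factor is known to induce (*NFKBIA*, *NFKBIE*, *TNFAIP3*, *BIRC3*, *TNFAIP2* and *ICAM1*). They were taken by gene symbol from the 60048 genes of the deposited table, by a rule that uses no measured value but was written with earlier results of these data known, and all 10 were found and passed the filter on low values. The libraries came from HCT116, a human colorectal carcinoma line, which here carries RAD21-mAC as its genotype. The RAD21 protein closes the cohesin ring, the complex that forms chromatin loops, and the mAC tag is a degron through which auxin triggers its breakdown. Both groups carried the tag: control cells (2 libraries) received DMSO, and auxin cells (2 libraries) were given the auxin indole-3-acetic acid at 0.5 mM for 3 h. All cells took up 5-ethynyl uridine (EU) at 0.5 mM for 20 min, after which the labelled, newly made RNA was captured and sequenced (EU-seq). The sources used here do not say whether the line is a single clone or whether the libraries of a group came from separate cultures. The p-values thus rest on the spread between these libraries, moderated by a trend over all tested genes. Untagged cells given auxin were not analysed here.

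NF-κB is a family of dimeric transcription factors. RELA paired with p50, the product of *NFKB1*, serves the canonical pathway, while RELB paired with p52, the product of *NFKB2*, serves the non-canonical pathway. In resting cells IκB proteins hold the dimers in the cytoplasm until the IKK kinase marks an IκB for destruction. The freed factor then induces its own inhibitors, and this feedback ends the response. In intestinal epithelium the pathway answers to cytokines and bacterial products and supports survival and inflammatory signalling.

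The values are a scaled signal per gene over the whole gene span, introns included, and were brought to a common scale by trimmed means of M-values. Changes are thus relative to most genes of a library, and a shift shared by most genes would not be seen. Depth in reads is unknown. Genes of both strands share the signal of the ground they cover: genes of 1 to 20 kb nested in a long, strongly transcribed protein-coding gene had a median signal per kilobase of 1.003 times that of the host on the same strand (433 nested genes) and 0.964 times on the opposite strand (1043). The *RAD21* signal was 5154 and 7190.2 in control and 5893 and 6264 in auxin replicates 1 and 2, and an RNA value does not measure the loss of the protein. Epithelial markers summed to 59238 and 65477 in control and to 58432 and 60624 in auxin, with *EPCAM*, *CDH1*, *KRT8*, *KRT18* and *KRT19* carrying most of it. The spans of *KRT8* and *KRT18* overlap, so shared signal enters the sum from both. Single markers moved both ways, 3 above 0 and 6 below, and none was called. *CDH1* had a log2 fold change of 0.55 (limma adjusted p = 0.0578) and *KRT19* one of -0.37 (limma adjusted p = 0.261). Of the intestinal genes among the epithelial markers, *CDX2* lay between 1211 and 2195, *VIL1*, which overlaps *USP37*, between 683 and 850.4, *CDH17* between 143 and 173, and *CDX1* between 6.74 and 17.0. A list of 10 immune, endothelial and fibroblast markers summed to 1232 and 1431 in control and to 1621 and 1831 in auxin. Most of it was *COL1A1*, *VWF* and *PECAM1*, and the leukocyte marker *PTPRC* lay between 22.5 and 34.8. Of the 8 tested in this list 7 had a log2 fold change above 0 and 1 below, beside 20236 above 0 among all 39464 tested genes. None of the 8 was called. *COL1A1* stood at 0.54 (limma adjusted p = 0.335). In bulk RNA, fewer cells making a transcript and less of it per cell cannot be told apart.

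The stretches below show the letters by which NF-κB is known to bind, upstream of the start sites of 6 of the genes. They are RefSeq sequences of GRCh38.p14, 5′ to 3′ on the strand of the gene, and capitals mark the motif.
NFKB1: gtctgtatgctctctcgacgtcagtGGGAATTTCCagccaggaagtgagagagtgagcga
NFKB2: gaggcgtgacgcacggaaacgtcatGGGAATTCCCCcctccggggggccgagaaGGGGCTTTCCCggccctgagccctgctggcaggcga
NFKBIA: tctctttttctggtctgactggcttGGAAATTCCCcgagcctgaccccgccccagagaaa
TNFAIP3: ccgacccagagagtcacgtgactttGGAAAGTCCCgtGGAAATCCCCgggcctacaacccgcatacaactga
BIRC3: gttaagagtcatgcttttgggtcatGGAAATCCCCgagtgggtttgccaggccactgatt
ICAM1: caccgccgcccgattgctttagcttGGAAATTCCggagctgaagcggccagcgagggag

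These stretches lie at chr4:102501285-102501344, chr10:102394446-102394535, chr14:35404796-35404855, chr6:137867167-137867238, chr11:102317260-102317319 and chr19:10270909-10270967, in the order printed, with *NFKBIA* on the minus strand and the others on the plus strand. Of the 10 genes, 8 had at least 1 promoter window in the RefSeq table. The 250 bases before each start were searched on both strands for 4 decamers, GGGNN followed by AT or TT and then by CCC or TCC, and for the looser nonamer GGNNNTTCC, whose matches partly overlap those of the decamers. The 8 genes have 12 windows in all, of which 6 held a decamer (50%), as against 4.88% of all 35116 windows, and 8 held a nonamer (66.7%), as against 17.1% of all windows. By gene, these are 5 of the 8 for the decamer and 7 of the 8 for the nonamer. No share by gene was taken over all genes, and *NFKB1* and *RELA* with 2 windows and *NFKB2* with 3 have more room for a match. The genes were listed as NF-κB subunits and known targets, so the higher share is no independent finding. *ICAM1* and *TNFAIP2* held the nonamer and no decamer, and the windows of *RELA* held neither. The stretch of *TNFAIP2*, whose RefSeq start lies 1985 bases inside the deposited span, is not printed. The matched bases began 49 bases upstream of the start in *NFKB1*, 81 in *NFKBIA*, 67 and 55 in *TNFAIP3*, 199 in *BIRC3* and 186 in *ICAM1*. In *NFKB2* they began 107 and 78 bases upstream of a RefSeq start that lies 468 bases inside the deposited span. A match is a string of letters and not a measured binding site.

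Set against the length of each gene, *RELA* and *NFKBIA* carried the densest nascent signal. Over the 4 libraries the mean signal per kilobase of span was 632 ± 70.4 (SD, n = 4) for *RELA*, 563 ± 95.5 for *NFKBIA* and 357 ± 64.0 for *NFKB2*. It was 185 ± 44.9 for *NFKBIE*, 181 ± 43.2 for *TNFAIP2*, 146 ± 20.1 for *RELB* and 112 ± 32.9 for *ICAM1*. The lowest levels per kilobase were those of *NFKB1* (55.4 ± 3.17), *TNFAIP3* (48.6 ± 12.3) and *BIRC3* (15.3 ± 5.73). Among tested protein-coding genes, whose median was 63.2 per kilobase, *RELA* stood at percentile 96.2 and *BIRC3* at percentile 29.1. The library ranges of neighbours in this order overlapped in 5 of 9 pairs. They were separate between *NFKBIA* and *NFKB2*, *NFKB2* and *NFKBIE*, *ICAM1* and *NFKB1*, and *TNFAIP3* and *BIRC3*. The subunit that pairs with RELA thus had about the level per kilobase of *TNFAIP3*, and spans 115944 bases, against 9489 for *RELA*.

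**Figure D1:**
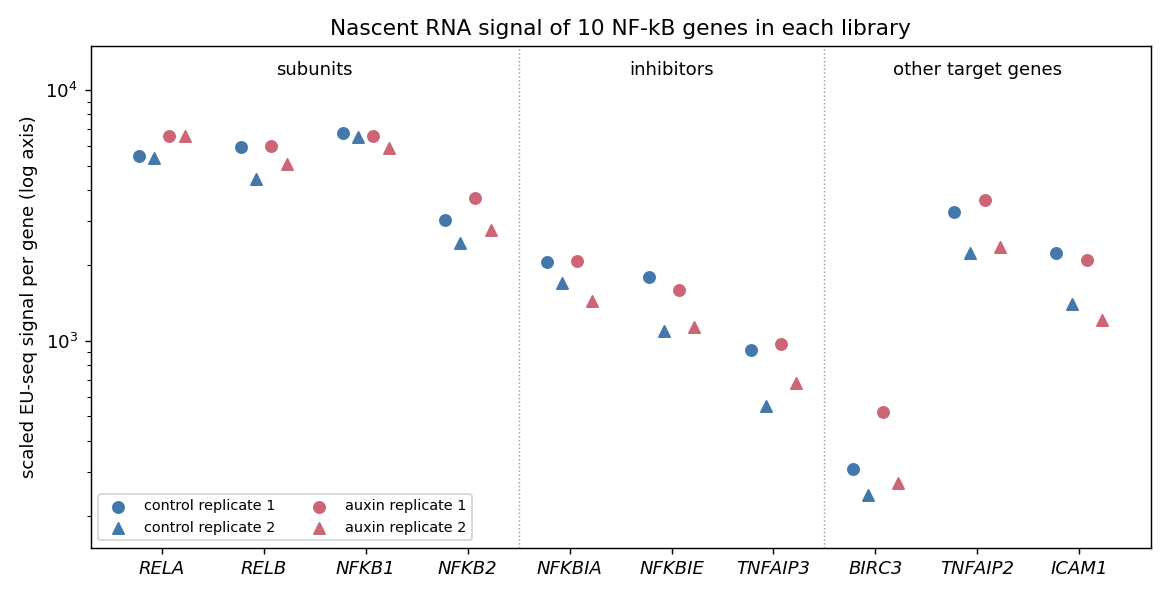
Scaled EU-seq signal per gene (log axis) of the 10 genes in each of the 4 libraries; colour gives the group and shape the replicate number. The 2 auxin libraries lie above both control libraries in *RELA* alone, and in each gene replicate 1 of a group lies above replicate 2, by under 2% in *RELA*.

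After 3 h of auxin none of the 10 genes rose or fell past the threshold. The question put to the data was whether loss of RAD21 changed the transcription of NF-κB subunits and of the genes the factor induces. With limma over 39464 genes, 0 of the 10 had an adjusted p under 0.05, beside 0.732% of all genes tested (289 genes, 0.332% higher and 0.400% lower with auxin). An unadjusted p under 0.05 was found in 0 of the 10, beside 10.2% of all, with *RELA* nearest at a limma p of 0.0501. Among settings that keep all 4 libraries, that 0 became 1 of 10 with median-ratio scaling, total-signal scaling, no filter, a mean of at least 50 or a pseudocount of 10. It became 3 of 10 with the replicate number as a block, where 10.8% of all genes passed even the adjusted threshold. The share of all genes with an unadjusted p under 0.05 was not taken under these settings. Of the 10, 6 had a log2 fold change above 0 and 4 below, with a median of 0.11, where the median over all tested genes was 0.0089. That balance rests on single libraries: 9 were above 0 without control replicate 1 (median 0.31) and without auxin replicate 2 (0.27), and 3 without control replicate 2 (-0.14) and 2 without auxin replicate 1 (-0.12). The spread limits what could be seen: among the 14458 tested genes in the same range of mean signal (336 to 6427), 163 were called and the smallest change called was 0.70 on the log2 scale.

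*RELA* (ENSG00000173039, GRCh38 chromosome 11, 65653602 to 65663090, minus strand) encodes the main transactivating subunit. Its scaled signal was 5449.6 and 5382 in control and 6574 and 6570.3 in auxin. Both auxin libraries stood above both control libraries, and the libraries of a group lay closer together than in any other of the 10 genes. The log2 fold change was 0.28 (SE 0.13, 95% interval -0.00011 to 0.56, limma adjusted p = 0.489, unadjusted p = 0.0501). On the log2 scale its replicates differed by 0.018 in control and 0.00088 in auxin. The SE came mostly from the trend over all tested genes. *RELA* was the one gene of the 10 whose groups did not overlap, a state shared by 38.2% of all tested genes, 18.6% of all with auxin higher and 19.6% with auxin lower. On the deposited scale, without further scaling, the *RELA* groups overlapped.

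*RELB* (ENSG00000104856, chromosome 19, 45001464 to 45038192, plus strand), the non-canonical subunit, had 5934 and 4433 in control and 5966 and 5087 in auxin. The groups overlapped, and replicate 1 was almost equal in both. This gave a log2 fold change of 0.10 (SE 0.17, 95% interval -0.27 to 0.47, limma adjusted p = 0.944).

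*NFKB1* (ENSG00000109320, chromosome 4, 102501359 to 102617302, plus strand) encodes p105, the precursor of p50, and is the longest of the 10 genes. Its signal was 6762 and 6502 in control and 6539 and 5904 in auxin. Auxin replicate 1 fell between the control libraries and auxin replicate 2 below them. Its log2 fold change was -0.094 (SE 0.13, 95% interval -0.38 to 0.19, limma adjusted p = 0.923), so a change beyond 1.14-fold up or to 0.768 of control lies outside that interval, the narrowest after *RELA*.

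*NFKB2* (ENSG00000077150, chromosome 10, 102394110 to 102402524, plus strand) encodes p100, the precursor of p52, which also acts as an inhibitor of RELB. Its signal was 3039 and 2461 in control and 3727 and 2777 in auxin. The highest value was auxin replicate 1 and the lowest control replicate 2, with the other two between them and overlapping. Auxin stood at a log2 fold change of 0.23 (SE 0.18, 95% interval -0.17 to 0.64, limma adjusted p = 0.792).

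Of the inhibitors, *NFKBIA* (ENSG00000100906, chromosome 14, 35401513 to 35404749, minus strand) encodes IκBα, the classic feedback inhibitor that is resynthesised within a response. Its signal was 2062 and 1699 in control and 2086 and 1442 in auxin, so the auxin libraries lay on either side of both controls. On the log2 scale the fold change was -0.11 (SE 0.20, 95% interval -0.56 to 0.34, limma adjusted p = 0.954).

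*NFKBIE* (ENSG00000146232, chromosome 6, 44258166 to 44265788, minus strand) encodes IκBε, a further feedback inhibitor. Its signal was 1795 and 1097 in control and 1594 and 1141 in auxin, both auxin values lying between the controls. Fitted, the log2 fold change was -0.057 (SE 0.25, 95% interval -0.61 to 0.50, limma adjusted p = 0.987).

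*TNFAIP3* (ENSG00000118503, chromosome 6, 137867259 to 137883312, plus strand) encodes A20, an enzyme that edits ubiquitin and damps signalling upstream of IKK. Its signal was 917 and 553 in control and 969.9 and 678 in auxin. The controls differed from each other 1.66-fold, and the groups overlapped. The log2 fold change was 0.19 (SE 0.27, 95% interval -0.40 to 0.78, limma adjusted p = 0.927). Its promoter stretch, printed among the sequences, was the one besides that of *NFKB2* with 2 runs of matched bases.

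*BIRC3* (ENSG00000023445, chromosome 11, 102317450 to 102339394, plus strand) encodes cIAP2, a ubiquitin ligase that serves TNF receptor signalling and cell survival. Its signal was the lowest of the 10, 309 and 244 in control and 520.1 and 271 in auxin. Auxin replicate 1 stood well above the other 3 libraries, and auxin replicate 2 lay between the controls. The log2 fold change of 0.45 was the largest of the 10 (SE 0.30, 95% interval -0.22 to 1.12, limma adjusted p = 0.728) and was -0.019 without auxin replicate 1. The adjacent paralogue *BIRC2*, which encodes cIAP1 and starts 7840.0 bases after *BIRC3* ends, had 2533 and 2825 in control and 2757 and 2834 in auxin, a log2 fold change of 0.063 (limma adjusted p = 0.968, SE 0.15).

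*TNFAIP2* (ENSG00000185215, chromosome 14, 103121476 to 103137439, plus strand) is a TNF-induced gene linked to membrane protrusions. Its signal was 3269 and 2233 in control and 3655 and 2375 in auxin. The groups overlapped, with replicate 1 of each well above replicate 2 of either. Auxin against control gave a log2 fold change of 0.12 (SE 0.23, 95% interval -0.39 to 0.64, limma adjusted p = 0.955).

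*ICAM1* (ENSG00000090339, chromosome 19, 10271120 to 10286615, plus strand) encodes an adhesion molecule that leukocytes bind. Its signal was 2233 and 1403 in control and 2110.5 and 1207 in auxin. The values lay together by replicate number rather than by group, and the groups overlapped. The log2 fold change was -0.15 (SE 0.28, 95% interval -0.77 to 0.47, limma adjusted p = 0.955).

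**Figure D2:**
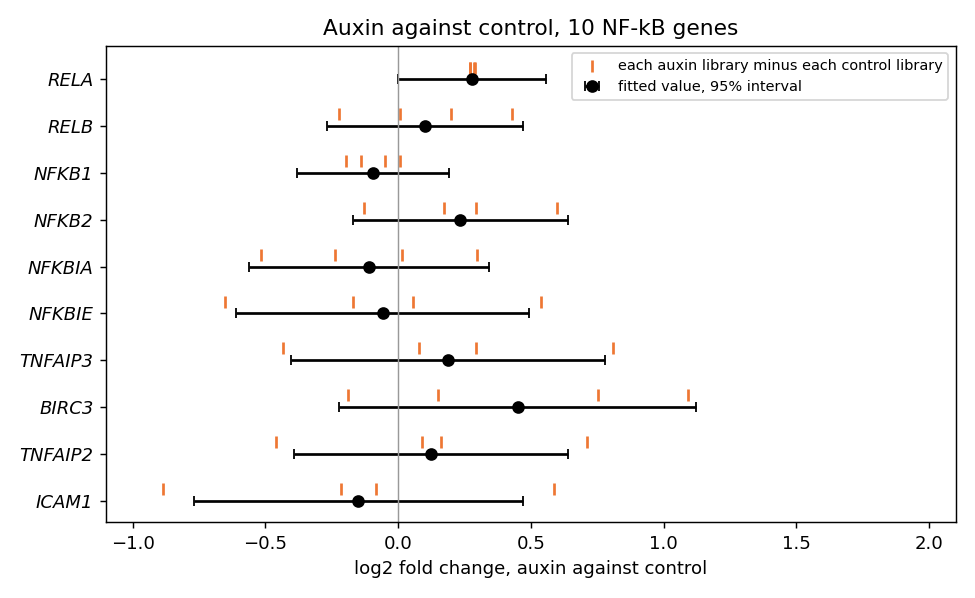
Fitted log2 fold change of auxin against control (points) with its 95% interval (bars) for the 10 genes, and above each the 4 differences between single auxin and control libraries (ticks). Every interval includes 0, the ticks of *RELA* lie together near 0.28, and in the other 9 genes ticks fall on both sides of 0.

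For most of these genes the 2 libraries of a group differed more than the groups did. The mean absolute log2 difference between replicates exceeded the absolute log2 fold change in 9 of the 10 genes, all but *RELA*. The same held for 61.8% of all tested genes and for 54% of the protein-coding genes in the same range of mean signal. The replicate difference had the same direction throughout: replicate 1 lay above replicate 2 in both groups in 10 of 10 genes, beside 31.0% of all tested genes and 42.1% of the protein-coding genes in the same range of mean signal. It was smallest in the canonical pair, at 1.01-fold in control and 1.001-fold in auxin for *RELA* and 1.04-fold and 1.11-fold for *NFKB1*. It was largest in *ICAM1* (1.59-fold and 1.75-fold), *BIRC3* (1.27-fold and 1.92-fold), *TNFAIP3* (1.66-fold and 1.43-fold), *NFKBIE* (1.64-fold and 1.40-fold) and *TNFAIP2* (1.46-fold and 1.54-fold). *NFKBIA* (1.21-fold and 1.45-fold), *NFKB2* (1.23-fold and 1.34-fold) and *RELB* (1.34-fold and 1.17-fold) lay between. The median of the mean absolute log2 difference between replicates was 0.50 over the 10 genes and 0.28 over all tested genes. Over the protein-coding genes in the same range of mean signal it was 0.18.

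The order of the replicates also held in 10 of 10 genes with median-ratio scaling and with scaling by total signal only. On the deposited scale, where auxin replicate 2 has the larger total, it held in 3 of 10, beside 5.85% of all tested genes. The labels name no batch, day or culture for the replicate numbers, and what sets the libraries apart was not tested.

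**Figure D3:**
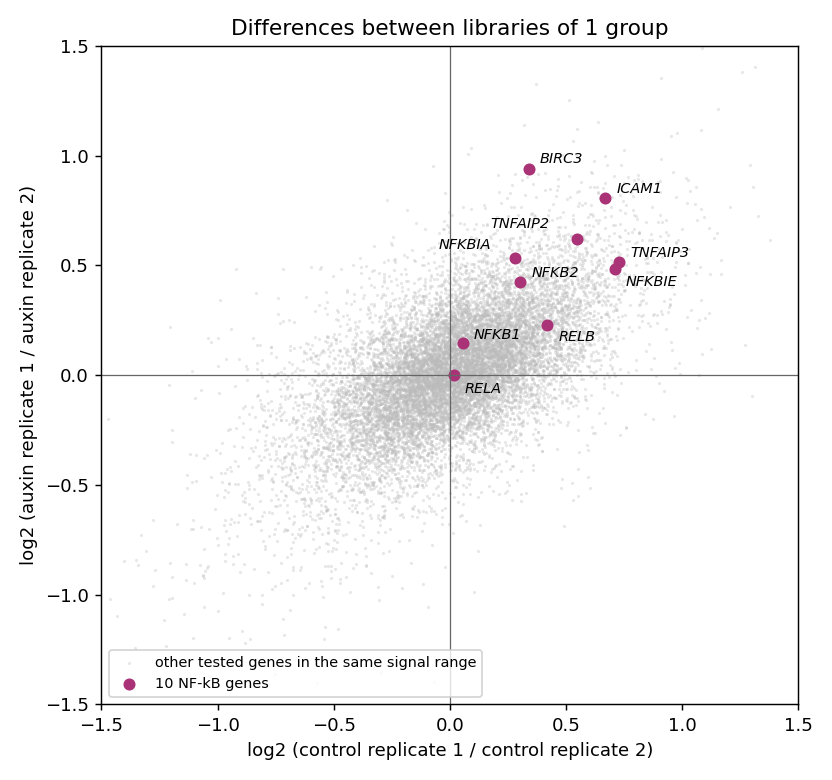
Log2 ratio of replicate 1 to replicate 2 in control (horizontal) and in auxin (vertical) for the 10 genes (large points) and for 14448 other tested genes in the same range of mean signal (small grey points, of which 16 lie outside the axes). The 10 genes all lie above 0 on both axes, with *RELA* next to the origin, *TNFAIP3* farthest right at 0.73 and *BIRC3* highest at 0.94.

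The genes around and over these loci were also read, since signal is shared by overlapping genes. *NFKB1*, *NFKB2*, *RELB*, *NFKBIA* and *NFKBIE* overlap no other gene of the table. *ICAM1* shares 90.3% of its span with the opposite-strand lncRNA gene AC011511.2, which covers 32841 bases and had 6525 and 5986 in control and 6233 and 5320.4 in auxin, a log2 fold change of -0.12 (limma adjusted p = 0.898). *BIRC3* shares 50.7% of its span with the opposite-strand lncRNA gene AP000942.5, where auxin replicate 1 also stood highest, at 339.9 against 183, 153 and 164 in the other 3 libraries. Of the 12414 bases of AP000942.5, 11137 lie within *BIRC3*, so its values are largely the same signal and not a second reading. The overlaps of *RELA*, *TNFAIP3* and *TNFAIP2* with RELA-DT, WAKMAR2 and LINC00677 covered 0.885%, 6.07% and 9.60% of each gene.

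The nearest tested gene on each side of each of the 10 was taken, 20 neighbours in all. None of the 20 was called with limma and 2 had an unadjusted p under 0.05, a share near the 10.2% of all tested genes. These were *GBF1*, a regulator of Golgi traffic 11227 bases before *NFKB2*, at 18571 and 19671 in control and 22860.2 and 26445 in auxin, a log2 fold change of 0.36 (limma adjusted p = 0.234), and *EXOC3L4*, before *TNFAIP2*, at 33.1 and 27.6 in control and 74.9 and 49.4 in auxin, a log2 fold change of 0.99 (limma adjusted p = 0.376). In both, the auxin libraries lay above the control libraries. Replicate 1 lay above replicate 2 in both groups in 8 of the 20 neighbours, beside 31.0% of all tested genes. *ICAM4*, 339 bases after *ICAM1*, was one of them (120 and 75.7 in control, 98.2 and 59.5 in auxin), and *BIRC2* was not.

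The rest of the pathway was described from 4 lists, none of which had a gene called with limma at an adjusted p under 0.05. Of the genes named from them, *REL*, *PDLIM2*, *TRAF2*, *MAP3K14*, *TNFSF12*, *PLAU*, *IRF1*, *BCL2L1* and *CFLAR* overlap other genes of the table (among them AC010733.1, AC037459.1, MIR4479, MAP3K14-AS1, TNFSF12-TNFSF13, C10orf55, IRF1-AS1, BCL2L1-AS1 and CFLAR-AS1, in that order). Over the shared bases their signal cannot be told apart from that of those genes, and the sizes of these overlaps are not given here. In the list of the fifth subunit *REL*, other IκB proteins and negative regulators, 16 of 16 genes were tested, 13 were above 0, and the median log2 fold change was 0.094. Over all tested genes 20236 of 39464 were above 0. Whether the counts above 0 in this and the other lists rest on single libraries was not tested. *REL* itself, the c-Rel subunit, had 2174 and 2067 in control and 2100.3 and 2060.5 in auxin (log2 fold change -0.027). The smallest p was that of *PDLIM2*, which encodes a ubiquitin ligase for nuclear RELA. It had 10678 and 12241 in control and 13993 and 14565 in auxin, a log2 fold change of 0.32 with an SE of 0.12 (limma adjusted p = 0.353). *PDLIM2* was the 1 of 16 genes in the list with an unadjusted p under 0.05, beside 10.2% of all tested genes.

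Of the receptors, adaptors and IKK components, 25 of 25 were tested, 15 were above 0 and 10 below, and the median log2 fold change was 0.074. An unadjusted p under 0.05 was found in 2 of the 25, beside 10.2% of all tested genes. *TRAF2*, an adaptor of TNF receptors, had 10551 and 8611 in control and 7573 and 7015 in auxin, a log2 fold change of -0.39 with an SE of 0.14 (limma adjusted p = 0.319). *MAP3K14*, named after its value was seen, encodes NIK, the kinase that starts the non-canonical pathway, and had 17746 and 23853 in control and 11829 and 18247 in auxin, a log2 fold change of -0.49 with an SE of 0.20 (limma adjusted p = 0.414). The *TRAF2* groups did not overlap and those of *MAP3K14* did, although in *MAP3K14* each auxin library lay below the control library of the same number. Without auxin replicate 2 the log2 fold change of *MAP3K14* was -0.80 and was called, but that fit holds 1 auxin library, assumed to vary like the rest, and takes its spread from the trend over all genes, so the call is no measure of the spread between auxin libraries.

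Most activating ligands had little nascent signal. *TNF* was listed at 0 in 3 libraries and at 5.61 in auxin replicate 2, and *LTA* lay between 1.69 and 7.14. Of the 10 ligands 7 were tested, 5 above 0, with a median log2 fold change of 0.27. *TNFSF12*, which encodes the cytokine TWEAK, had the smallest p and the highest signal, at 632 and 618 in control and 871 and 813 in auxin, a log2 fold change of 0.43 with an SE of 0.18 (limma adjusted p = 0.438). It was the 1 of 7 tested ligands with an unadjusted p under 0.05, beside 10.2% of all tested genes.

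Among 29 other target genes 24 were tested, 14 were above 0 and 10 below, and the median log2 fold change was 0.088. An unadjusted p under 0.05 was found in 2 of the 24, beside 10.2% of all tested genes. *PLAU*, which encodes urokinase, had 3274 and 2706 in control and 2227 and 1925 in auxin, a log2 fold change of -0.52 with an SE of 0.16 (limma adjusted p = 0.241). *IRF1*, a transcription factor of interferon responses named after its value was seen, had 1274 and 901 in control and 767 and 765 in auxin, a log2 fold change of -0.48 with an SE of 0.20 (limma adjusted p = 0.444). In both genes the auxin libraries lay below both control libraries. Of the survival genes in the list, *BCL2L1* and *BCL2A1*, inhibitors of apoptosis of the BCL2 family, had log2 fold changes of 0.024 (SE 0.095) and 0.40 (SE 0.54). *CFLAR*, which encodes the caspase-8 inhibitor FLIP, had 9882 and 12087 in control and 7913 and 9658 in auxin, both auxin libraries below both control libraries, which gave a log2 fold change of -0.32 with an SE of 0.15 (limma adjusted p = 0.495).

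The chemokine gene *CXCL8* had 103 and 38.9 in control and 295 and 43.8 in auxin, and *CXCL2* had 248 and 112 in control and 466 and 68.5 in auxin, so that in each group replicate 1 was more than 2-fold above replicate 2. Neither was called. Without auxin replicate 2 the log2 fold changes were 2.21 for *CXCL8* and 1.48 for *CXCL2* and both were called, with the high library then the 1 auxin library left and the spread again taken from the trend over all genes, whereas the *CXCL8* controls alone differed by 1.38 on the log2 scale. Over the list as a whole, replicate 1 lay above replicate 2 in both groups in 13 of 24 tested genes, with 7 of 16 in the list of REL and negative regulators, 14 of 25 in that of receptors, adaptors and IKK components, and 4 of 7 ligands, beside the 31.0% of all tested genes and 42.1% of protein-coding genes of like signal given for the 10 genes.

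**Figure D4:**
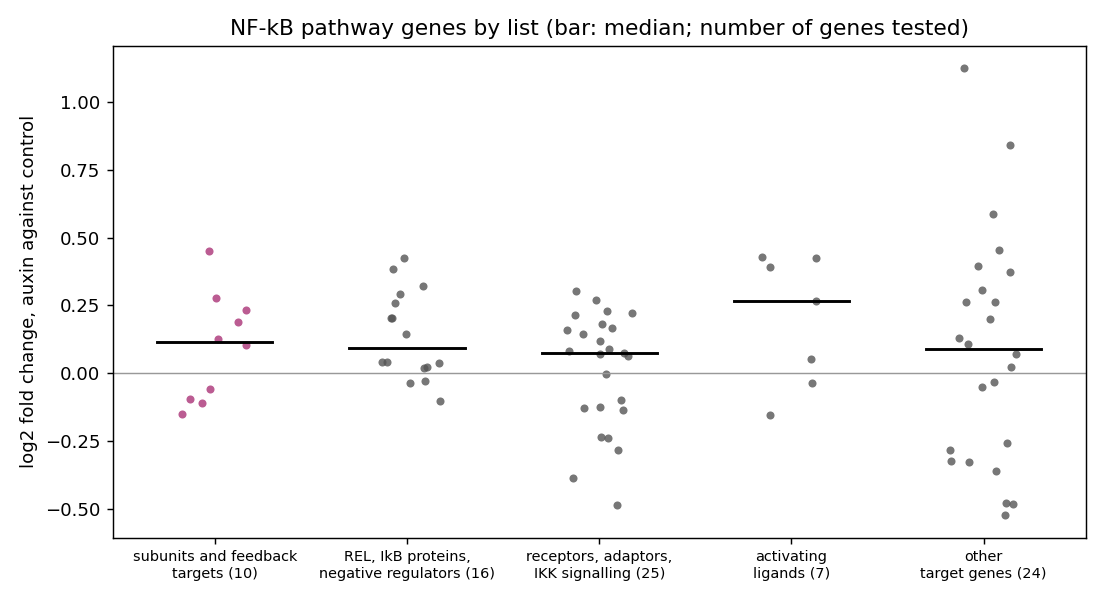
Log2 fold change of auxin against control for every tested gene of the 10 NF-κB genes and of the 4 other pathway lists (points, spread sideways for display only), with the median of each list (bar). The medians lie between 0.074 and 0.27, and none of the genes shown was called.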

How the data were processed

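EU-seq was made from 4 libraries (2 control, 2 auxin), grouped by sample title. The authors deposited 1 table with a signal per gene and library, gene coordinates and spans; low values were whole multiples of 1 step per library, which was not treated as a read. A control column with a misspelt name was read as control replicate 2. Per the submitters' processing notes, Trimmomatic 0.39, Bowtie2 2.4.5, deepTools 3.5.1, hg38 and dm6 were named with no role; the counter, annotation and scaling are not given in the sources used here. The table's coordinates matched RefSeq GRCh38 (99.8% of 37753 symbols overlapped); its starts count from 0 and are printed 1 higher. Deposited totals ran from 61135200.0 to 93113000.0, divided by factors of 0.816 to 1.21.

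The filter kept 39464 genes with at least 10, taken relative to the median library total, in 2 libraries, and a sum of at least 15. Log2 of the scaled value plus 1 was fitted with limma 3.58.1 (lmFit, eBayes with trend; R 4.3.3), with Benjamini-Hochberg adjustment over all genes at 0.05; intervals use the moderated spread (prior degrees of freedom 8.23). The log2(value + 1) scale understates the change of low genes. The 10 genes and all lists were chosen with earlier results of these data known. Named outside the 10 genes were, per list, the gene of lowest p, and neighbours and overlapping genes; others (with *CFLAR*) were named after their values were seen, or (*REL*, *BCL2L1*, *BCL2A1*, *CXCL8*, *CXCL2*, *TNF*, *LTA* and markers) were picked as examples. Alternatives covered scaling, filter, pseudocount, threshold, replicate block and each library left out. Figures and motif searches used Python 3.11.15, pandas 2.3.3 and matplotlib 3.10.9.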

Additional observations from a re-analysis of the deposited data

How the results depend on the processing

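None of the 10 genes was called under any of the 13 alternatives, which gave 130 values for them (smallest limma adjusted p 0.0623, *RELA* with the replicate block). The stricter threshold could call none by construction. On the deposited scale the SEs were wider (*RELA* 0.41, against 0.13 in the main fit), which left little room for a call. No sign turned under the scalings or pseudocounts. The filters, the block and the stricter threshold leave these log2 fold changes unchanged by construction, so they could not turn a sign. Leaving out 1 library turned the sign of 7 of the 10 log2 fold changes: *RELB* (range -0.11 to 0.31; -0.11 without control replicate 2, -0.012 without auxin replicate 1), *TNFAIP3* (-0.18 to 0.55; -0.18 and -0.070 without the same), *TNFAIP2* (-0.19 to 0.44; -0.15 and -0.19 without the same), *NFKBIA* (-0.38 to 0.16; 0.030 without control replicate 1, 0.16 without auxin replicate 2), *NFKBIE* (-0.41 to 0.30; 0.30 and 0.18 without the same), *ICAM1* (-0.55 to 0.25; 0.19 and 0.25 without the same) and *BIRC3* (-0.019 to 0.92; -0.019 without auxin replicate 1). The count of the 10 above 0 ran from 2 to 9 and their median from -0.14 to 0.31. *RELA* kept 0.27 to 0.29, *NFKB1* -0.17 to -0.020 and *NFKB2* 0.022 to 0.45. Over all genes, 289 calls became 55 on the deposited scale (the cause was not tested), 82 at an adjusted p under 0.01, fewer by construction, and 211 to 673 with 1 library left out (673 without auxin replicate 1, 527 without auxin replicate 2; the cause was not tested). In the lists, leaving out 1 library gave 0 to 1 calls among receptors, adaptors and IKK components (*MAP3K14*) and 0 to 2 among other targets (*CXCL8* and *CXCL2*), all without auxin replicate 2, where 1 auxin library is left, the prior degrees of freedom were infinite and the calls are no measure of the spread between auxin libraries.

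No label ties a replicate number to a batch, and 2 pairs cannot settle it; the replicate differences of control and auxin correlated across genes, which are not independent replicates, at r = 0.231 (0.462 among genes with a mean of 50 or more). Under the replicate block, whose prior degrees of freedom were infinite, 4273 genes (10.8%) were called, 0 of the 10 among them, 4 of 16 in the list of REL and negative regulators, 2 of 25 among receptors, adaptors and IKK components, 1 of 7 ligands and 6 of 24 other targets; *PDLIM2* (log2 fold change 0.32), *BCL3* (0.39), *CYLD* (0.43) and *TNIP1* (0.29) were called there in the first list, *MAP3K14* (-0.49, adjusted p = 1.54e-05, the lowest of the 13) and *TRAF2* (-0.39) in the next, *TNFSF12* (0.43) among ligands, and *PLAU* (-0.52), *IRF1* (-0.48), *CD83* (-0.48), *GADD45B* (-0.36), *CFLAR* (-0.32) and *CXCL8* (0.84) among other targets. *BCL3* and *CYLD* overlap other genes of the table.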
